A study of Mus musculus with 9 samples.

Results

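The expression of 37 interferon-stimulated and interferon-regulatory genes was followed in livers of mice whose bile duct was ligated (BDL), with and without ligustilide. The genes were taken from a list of symbols known for their role in the response, drawn up with earlier results of these data known, and all 37 were found among the 21470 genes of the expression table. Liver RNA had been sequenced in 9 libraries, 3 from ligated mice given ligustilide (BDL+LIG), 3 from ligated mice (BDL) and 3 from sham-operated mice. Ligustilide (LIG) is a phthalide found in the roots of Angelica and Ligusticum plants. Ligation of the bile duct blocks the outflow of bile and is a standard model of cholestatic liver injury and fibrosis. The design text and the library titles give different doses of ligustilide, so no dose is stated. Strain, sex, age, time after surgery and whether the BDL and sham mice received vehicle do not appear in the sources used here.

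Interferons are secreted proteins that act through cell surface receptors and Janus kinases. Type I interferons (alpha and beta) activate a complex with STAT2 and IRF9, which binds the interferon-stimulated response element (ISRE), and type II interferon (gamma) acts through the gamma-activated site (GAS). The genes switched on in this way encode RNA sensors, antiviral effectors, GTPases that attack pathogen-containing vacuoles, proteins of class I antigen processing and chemokines. In healthy liver many of them are expressed at a low tonic level, in hepatocytes as well as in the resident macrophages.

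The promoters (250 bases before to 50 after each start in the RefSeq table, build GRCm38.p6) of 29 of the 37 genes were matched by symbol. The core of the ISRE, a pair of GAAA runs with any pair of bases between them, searched on both strands, was found in a promoter of 15 of these 29 genes, against 3.99% of all 27025 gene symbols counted in the same way (3.44% of all 32851 promoters). The core of the GAS, TTC and GAA with any 3 bases between them, whose pattern is the same on both strands, was found in 8 of the 29 genes, against 9.55% of all symbols (8.3% of all promoters); 4 genes held both and 10 held neither. The ISRE core was held by 6 of the 10 matched genes that were lower in BDL than in sham livers, by both genes that were higher and by 7 of the 17 that did not pass the test, so the presence of these letters did not separate the directions. A match of letters is no evidence of binding. The windows printed here were taken only from members with an ISRE core. Of the 7 members whose falls in BDL against sham held under every setting (named below), only Igtp is among them. Irf9, Ifi44 and Xaf1 held no ISRE core, and Ifi27, Rtp4 and Usp18 were not matched to a promoter. Each window runs 5′ to 3′ in the direction of the gene and ends before its start, with the ISRE cores in capitals (adjoining matches run together, and matches on the other strand read as a pair of TTTC runs).
Isg15, chr4:156200846-156200925, minus strand: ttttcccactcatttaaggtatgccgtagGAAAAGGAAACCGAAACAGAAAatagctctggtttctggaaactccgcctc
Ifit1, chr19:34640759-34640838, plus strand: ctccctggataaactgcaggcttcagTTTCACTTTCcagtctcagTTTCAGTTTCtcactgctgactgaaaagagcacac
Ifit3, chr19:34583355-34583434, plus strand: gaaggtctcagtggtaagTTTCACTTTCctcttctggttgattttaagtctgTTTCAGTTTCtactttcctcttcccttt
Bst2, chr8:71537555-71537634, minus strand: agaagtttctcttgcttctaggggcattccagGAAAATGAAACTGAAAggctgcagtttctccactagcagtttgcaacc
Igtp, chr11:58199476-58199555, plus strand: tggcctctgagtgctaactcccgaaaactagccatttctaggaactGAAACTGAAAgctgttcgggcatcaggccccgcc
Irgm1, chr11:48871421-48871500, minus strand: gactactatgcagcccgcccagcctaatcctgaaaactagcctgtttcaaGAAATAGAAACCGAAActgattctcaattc
Gbp2, chr3:142620569-142620648, plus strand: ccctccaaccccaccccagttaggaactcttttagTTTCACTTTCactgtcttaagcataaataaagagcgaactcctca
Cxcl10, chr5:92349058-92349137, minus strand: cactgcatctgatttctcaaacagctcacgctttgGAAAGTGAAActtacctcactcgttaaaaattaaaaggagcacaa
The window of Isg15 held 3 overlapping cores, and those of Ifit1, Ifit3, Bst2 and Irgm1 held 2 each. Gbp2 and Cxcl10, the members that were higher after ligation, held 1 core each, as did Igtp, which was lower.

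Expression is given as deposited by the authors, in FPKM, which counts fragments relative to the length of the transcript and the depth of the library. Differences were tested with limma on log2(FPKM + 1) over the 10142 genes that reached 1 FPKM in 3 or more libraries, with p-values adjusted over all of these genes (Benjamini-Hochberg) and a threshold of 0.05. All 37 members passed this filter on low values. A change on this scale understates that of genes of low expression. Nothing in the labels says that the 3 libraries of a group came from separate mice, so p-values measure the spread between these libraries. The libraries held 30893098 to 37381734 fragments assigned to genes, and a member had between 80 (Ifi44) and 15283 (Iigp1) fragments in a library. The members varied more between the libraries of a group than the genes at large. Their median SD on the log2 scale was 0.256 in BDL+LIG, 0.158 in BDL and 0.36 in sham livers, against 0.147, 0.098 and 0.246 for all tested genes in the same 3 groups. BDL+LIG library 1 was the lowest of its group for 29 of the 37 members and BDL library 1 for 28. Sham library 3 was the highest of its group for 27 members and sham library 1 the lowest for 26. Sham library 1 also stood apart from the other sham libraries on the second principal component of all genes (34.5, against -6.3 and -12.5), so results that rest on it are given with and without it.

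Many of the 37 listed interferon genes, chosen with earlier results of these data known, were lower in ligated livers. Of 48 other tested genes known to be induced by type I interferon, 4.17% fell and 25.0% rose in BDL against sham. In BDL against sham livers, 15 of the 37 members fell (40.5%) and 2 rose (5.41%), whereas over all tested genes 6.76% fell and 22.9% rose (29.7% in all). The members that fell were the ISG15 protease Usp18, the transcription factor Irf9, the sensor Dhx58, the antiviral effectors Ifit1, Ifit3, Bst2, Ifi44, Ifi27, Rtp4 and Xaf1, the GTPases Igtp, Irgm1, Iigp1 and Gbp3, and the peptide transporter Tap1. The members that rose were the GTPase Gbp2 and the chemokine Cxcl10. The median change of the members was -0.54, against 0.16 for all tested genes. The libraries of the 2 groups did not overlap for 15 members that were lower in BDL (11.3% of all genes did this) and for 4 that were higher (33.7% of all genes). With 3 libraries a group, an exact permutation test of a single gene cannot give a two-sided p below 0.1. Of the 15 falls, 7 held without any 1 library and under every other setting in which the gene was tested: Irf9, Ifi44, Ifi27, Rtp4, Xaf1, Usp18 and Igtp. Ifi44 and Xaf1 were not tested under the filter on a mean of at least 5 FPKM, which left 22 members. Of all genes past the threshold in this comparison 77.2% were higher, against 49.9% with median-of-ratios scaling and 55.6% with quantile normalization. The count of members that fell was 8 without BDL library 1 and 20 without sham library 1. Of the 10142 tested genes, 483 and 937 then fell, against 686 in the main fit.

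In BDL+LIG against BDL livers, none of the 37 members passed the threshold, against 11.8% of all tested genes (9.98% higher and 1.79% lower). At an unadjusted p under 0.05 there were 3 members (8.11%, against 31.8% of all tested genes), namely Trim30a and Tap1, which had higher means in BDL+LIG, and Iigp1, which had a lower mean. Another fit, limma-voom on fragments recovered from the FPKM values, also called none, while other settings called 1 or 2 members: 1 with quantile normalization, 2 with median-of-ratios scaling, 1 with TPM, 1 with the replicate block, 2 with the 2 groups fitted alone and 1 without BDL+LIG library 1. Of all genes past the threshold 84.8% were higher, against 43.7% with median-of-ratios scaling and 51.0% with quantile normalization. The 11.8% stands for 1194 genes, and 40, 0 and 54 genes passed without BDL libraries 1, 2 and 3. The median change of the members was -0.01, against 0.18 for all tested genes. The libraries did not overlap for 4 members that were higher in BDL+LIG (Irf1, Usp18, Parp14 and Tap1) and for 3 that were lower (Isg15, Parp9 and Ifi47), against 40.7% and 10.5% of all genes. A p that misses the threshold does not show that the 2 groups were alike.

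BDL+LIG livers set against sham livers, which are the same sham libraries as above, had 17 members lower (45.9%) and 5 higher (13.5%), whereas 8.92% of all tested genes were lower and 43.7% higher (52.6% in all). The median change was -0.41, against 0.34 for all tested genes. The libraries did not overlap for 16 members that were lower and 5 that were higher, against 9.71% and 45.7% of all genes. Of the lower calls, 13 held without any 1 library and under every other setting in which the gene was tested, and of the 5 higher calls only that of Gbp2 did. Of these, Ifit1, Ifit3, Ifi44, Xaf1 and Gbp2 were not tested under the filter on a mean of at least 5 FPKM. Of all genes past the threshold 83.0% were higher, against 43.7% with median-of-ratios scaling and 52.9% with quantile normalization. Without BDL+LIG library 2 the count of higher members was 3, and that of all tested genes was 3691, against 4430 in the main fit.

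**Figure D1:**
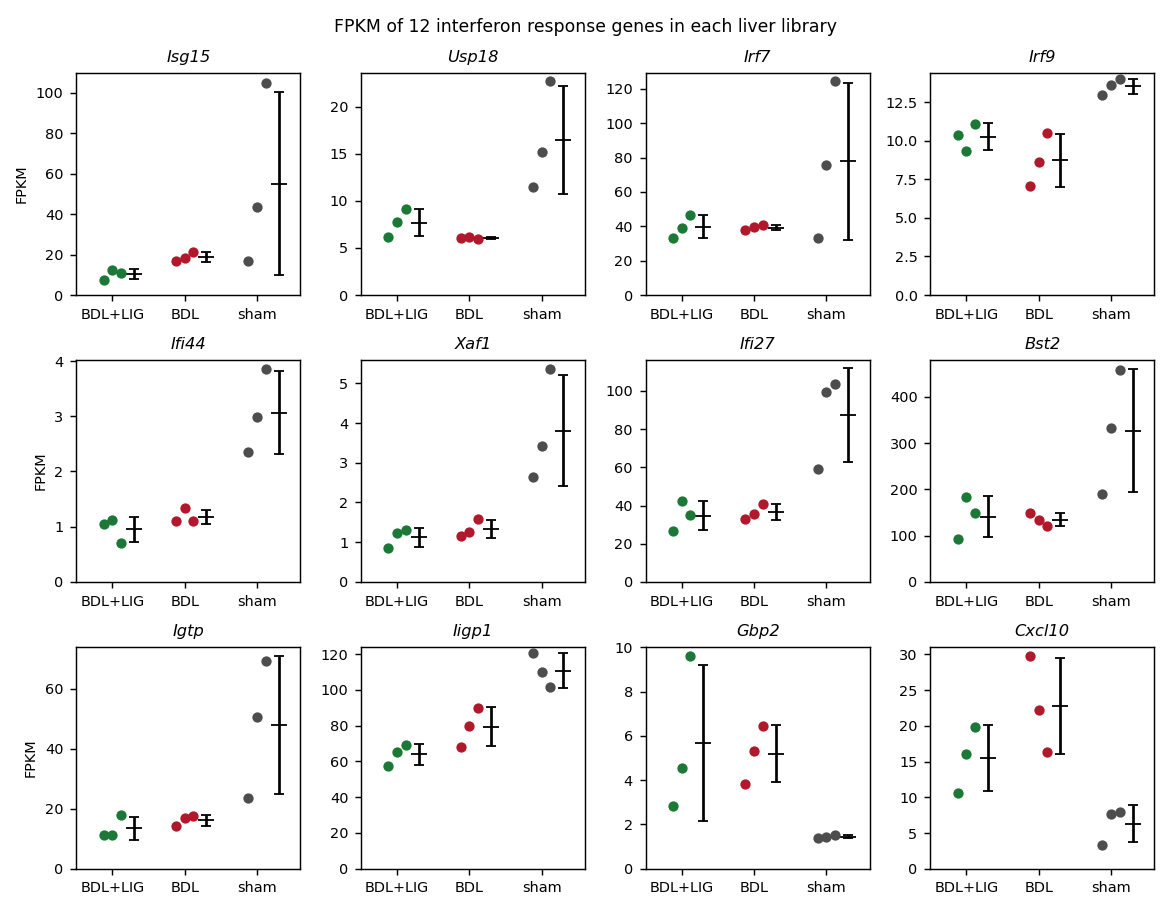
FPKM of members in each library on a linear axis, with 1 point a library and BDL+LIG, BDL and sham from left to right. A bar beside the points gives the mean and SD of each group. Usp18, Ifi44, Ifi27 and Igtp are lower in every BDL+LIG and BDL library than in every sham library, and Gbp2 and Cxcl10 are higher.

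**Figure D2:**
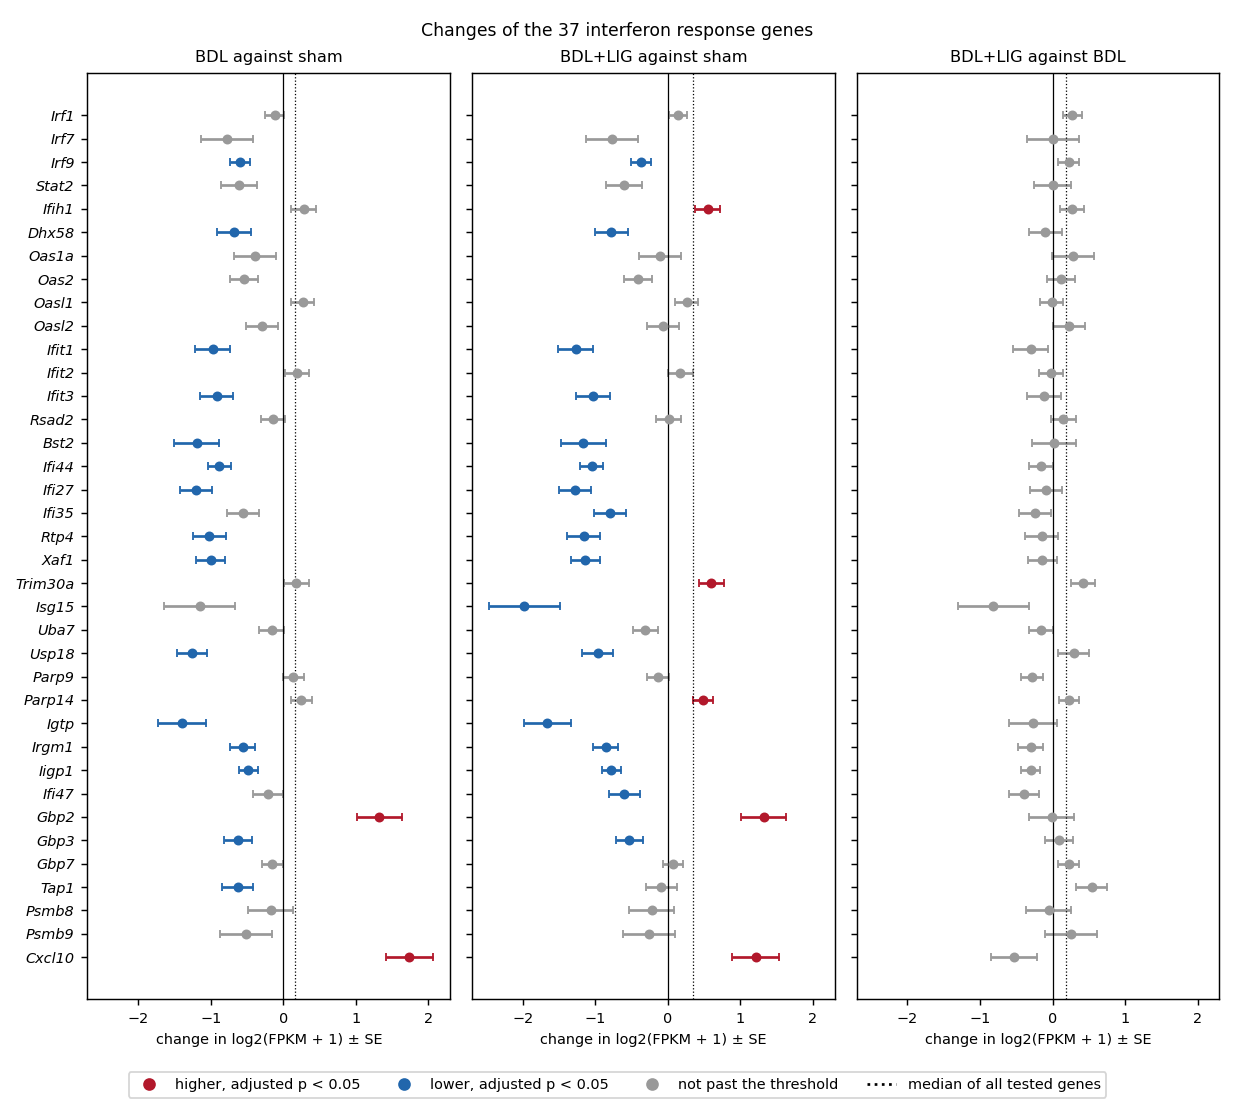
Change of each of the 37 members on the log2(FPKM + 1) scale with its SE from limma, by role, for each comparison, with members past an adjusted p of 0.05 marked. Most members lie below 0 against sham, and no member passes in BDL+LIG against BDL.

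Among the transcription factors of the response, Irf9 was the member that changed after ligation. It had 10.4, 9.32 and 11.1 FPKM in BDL+LIG livers, 7.08, 8.61 and 10.5 FPKM in BDL livers and 13.0, 13.6 and 14.0 FPKM in sham livers. Every sham library was above every ligated library. Irf9, the DNA-binding partner of STAT2, fell by 0.60 ± 0.14 (log2, SE) in BDL against sham livers (adjusted p = 0.0102). It also fell by 0.37 ± 0.14 in BDL+LIG against sham (adjusted p = 0.048), a call that was lost under 10 of 20 other settings, among them leaving out BDL library 2, any BDL+LIG library, or sham library 2 or 3 (adjusted p 0.0515 to 0.406 over the 10).

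Irf7, which amplifies type I interferon production, had 33.3, 39.3 and 46.8 FPKM in BDL+LIG livers, 37.6, 39.7 and 40.6 FPKM in BDL livers and 33.4, 75.5 and 124.5 FPKM in sham livers. The sham libraries spanned 3.73-fold and sham library 1 lay below all BDL libraries. The change of -0.78 ± 0.36 in BDL against sham did not pass (adjusted p = 0.134); without sham library 1 it was -1.28 (adjusted p = 0.0011). It was -0.77 ± 0.36 in BDL+LIG against sham (adjusted p = 0.0953), and without sham library 1 it was -1.28 (adjusted p = 0.000466).

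Stat2, the partner of IRF9, had 9.78, 7.23 and 8.66 FPKM in BDL+LIG livers, 7.11, 9.61 and 9.05 FPKM in BDL livers and 21.5, 9.38 and 12.1 FPKM in sham livers. Here sham library 1 was the highest of all 9, and BDL+LIG library 1 and BDL library 2 were above sham library 2. The change in BDL against sham was -0.61 ± 0.25 (adjusted p = 0.0952), and without sham library 2 it was -0.85 (adjusted p = 0.0309). It was -0.61 ± 0.25 in BDL+LIG against sham (adjusted p = 0.0616), and without sham library 2 it was -0.85 (adjusted p = 0.0172). Irf1, a factor induced mainly by type II interferon, had 16.5, 14.3 and 18.8 FPKM in BDL+LIG livers, 13.8, 13.3 and 13.5 FPKM in BDL livers and 15.6, 16.1 and 12.9 FPKM in sham livers. Its changes were -0.12 ± 0.13 in BDL against sham (adjusted p = 0.521) and 0.27 ± 0.13 in BDL+LIG against BDL (adjusted p = 0.187).

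Of the 6 RNA sensors and oligoadenylate synthetase genes, 1 fell (16.7%) and none rose in BDL against sham. Over all tested genes 6.76% fell and 22.9% rose, and so low a count does not set this group apart. Dhx58, which encodes the RIG-I-like receptor LGP2, had 2.83, 4.8 and 4.02 FPKM in BDL+LIG livers, 4.01, 4.31 and 4.12 FPKM in BDL livers and 5.63, 5.98 and 11.2 FPKM in sham livers. Every sham library was above every ligated library, the BDL+LIG and BDL libraries overlapped, and sham library 3 was well above the other sham libraries. Dhx58 fell by 0.68 ± 0.23 in BDL against sham (adjusted p = 0.0494). This call sat at the threshold and was lost under 13 of 20 other settings, among them leaving out any BDL library, BDL+LIG library 2 or 3, or sham library 2 or 3 (adjusted p 0.0501 to 0.127 over the 13). The fall was 0.78 ± 0.23 in BDL+LIG against sham (adjusted p = 0.017; 0.0673 without BDL+LIG library 1).

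Ifih1, which encodes the RNA sensor MDA5, had 7.06, 8.53 and 6.42 FPKM in BDL+LIG livers, 4.69, 6.62 and 6.45 FPKM in BDL livers and 5.7, 4.33 and 4.07 FPKM in sham livers. All BDL+LIG libraries were above all sham libraries, and the BDL libraries overlapped with both. Ifih1 rose by 0.55 ± 0.17 in BDL+LIG against sham (adjusted p = 0.0188), but the change was 0.08 with median-of-ratios scaling (adjusted p = 0.628) and the call was also lost without BDL+LIG library 2, sham library 2 or sham library 3 (adjusted p 0.059 to 0.0734). The synthetase genes, whose products make the oligoadenylates that activate RNase L, and their relatives did not pass in any comparison. Oas2 had 1.15, 1.06 and 1.63 FPKM in BDL+LIG livers, 0.854, 1.33 and 1.08 FPKM in BDL livers and 2.79, 1.31 and 2.12 FPKM in sham livers, and its change in BDL against sham was -0.54 ± 0.19 (adjusted p = 0.0572; 0.0164 without sham library 2). Oas1a, Oasl1 and Oasl2 had changes of -0.39 ± 0.29, 0.27 ± 0.16 and -0.29 ± 0.22 in the same comparison. Oas1a belongs to a cluster of near-identical genes, and how the authors' counting divided reads among them is not given, so its level is uncertain.

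The largest group by number, 11 antiviral effectors, held 7 that fell (63.6%) and none that rose in BDL against sham livers. Over all tested genes 6.76% fell and 22.9% rose. The median change of the 11 was -0.92, against 0.16 for all tested genes. Ifi44, an interferon-induced antiviral protein, had 1.04, 1.13 and 0.697 FPKM in BDL+LIG livers, 1.11, 1.33 and 1.1 FPKM in BDL livers and 2.36, 2.98 and 3.86 FPKM in sham livers. Every sham library was above every ligated library. It fell by 0.88 ± 0.16 in BDL against sham (adjusted p = 0.00238) and by 1.05 ± 0.16 in BDL+LIG against sham (adjusted p = 0.000436).

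Ifi27, a mitochondrial and nuclear-envelope protein induced by type I interferon, had 26.9, 42.5 and 34.9 FPKM in BDL+LIG livers, 32.8, 35.8 and 40.9 FPKM in BDL livers and 59.0, 99.2 and 103.7 FPKM in sham livers. The mean in BDL was 0.418 of that in sham, with no overlap, and the fall was 1.20 ± 0.22 (adjusted p = 0.00293). Xaf1, which binds the apoptosis inhibitor XIAP, had 0.85, 1.23 and 1.3 FPKM in BDL+LIG livers, 1.16, 1.26 and 1.59 FPKM in BDL livers and 2.63, 3.43 and 5.36 FPKM in sham livers. Again the lowest sham library was above the highest ligated one, and Xaf1 fell by 1.00 ± 0.20 in BDL against sham (adjusted p = 0.00395). Rtp4, a Golgi chaperone of receptors, had 4.24, 6.27 and 6.66 FPKM in BDL+LIG livers, 5.78, 6.63 and 6.64 FPKM in BDL livers and 9.32, 15.4 and 18.4 FPKM in sham livers. It fell by 1.02 ± 0.23 in BDL against sham (adjusted p = 0.00748).

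Ifit1, which binds capped viral RNA, and its relative Ifit3 fell by 0.97 ± 0.24 and 0.92 ± 0.23 in BDL against sham (adjusted p = 0.0127 and 0.0134). Ifit1 averaged 2.05 ± 0.564 FPKM in BDL+LIG livers, 2.76 ± 0.709 FPKM in BDL livers and 6.53 ± 2.57 FPKM in sham livers (SD, n = 3 each). Ifit3 averaged 2.92 ± 1.4 FPKM in BDL+LIG livers, 3.08 ± 0.406 FPKM in BDL livers and 6.71 ± 0.938 FPKM in sham livers. Neither gene's sham libraries overlapped those of the ligated groups. Without BDL library 1 the adjusted p was 0.0526 for Ifit1 and 0.0517 for Ifit3. The Ifit genes lie in a cluster of related copies, and the near-identical Ifit3b, at 1.46 ± 0.302 FPKM in sham livers, may share reads with Ifit3. Ifit2, of the same family, had changes of 0.19 ± 0.17 in BDL against sham (adjusted p = 0.439) and 0.17 ± 0.17 in BDL+LIG against sham (adjusted p = 0.433).

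Bst2 (tetherin), which holds budding virions at the cell surface, was the most abundant member in every group. It had 93.3, 182.6 and 147.9 FPKM in BDL+LIG livers, 149.2, 134.4 and 119.8 FPKM in BDL livers and 190.9, 332.1 and 458.4 FPKM in sham livers. The sham libraries spanned 2.4-fold, yet the lowest was above every ligated library. Bst2 fell by 1.19 ± 0.31 in BDL against sham (adjusted p = 0.0157), a call lost without BDL library 3 (adjusted p = 0.0623) or sham library 2 (adjusted p = 0.0532). Ifi35 averaged 17.5 ± 3.48 FPKM in BDL+LIG livers, 20.7 ± 1.4 FPKM in BDL livers and 32.0 ± 11.0 FPKM in sham livers. Its change in BDL against sham was -0.55 ± 0.22 (adjusted p = 0.0844; 0.0131 without sham library 1), and it fell by 0.80 ± 0.22 in BDL+LIG against sham (adjusted p = 0.0116).

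Trim30a and Rsad2 did not pass as lower in either comparison with sham. Trim30a, a ubiquitin ligase that restrains innate signalling in mice, had 1.33, 2.6 and 2.43 FPKM in BDL+LIG livers, 1.25, 1.42 and 1.2 FPKM in BDL livers and 1.18, 0.917 and 0.959 FPKM in sham livers. It rose by 0.60 ± 0.17 in BDL+LIG against sham (adjusted p = 0.0124), a call lost with median-of-ratios scaling (0.27, adjusted p = 0.132), with quantile normalization (0.14, adjusted p = 0.441) and without BDL+LIG library 2 (adjusted p = 0.0506). The change was 0.42 ± 0.17 in BDL+LIG against BDL (adjusted p = 0.118), and without BDL+LIG library 1 it was 0.62 (adjusted p = 0.0371). Rsad2 (viperin) had changes of -0.14 ± 0.17 in BDL against sham (adjusted p = 0.577) and 0.01 ± 0.17 in BDL+LIG against sham (adjusted p = 0.974).

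In the ISG15 system, which couples the ubiquitin-like protein ISG15 to other proteins through the activating enzyme Uba7 and removes it with the protease Usp18, Usp18 had the smallest p of all members in BDL against sham. It had 6.19, 7.79 and 9.1 FPKM in BDL+LIG livers, 6.08, 6.12 and 5.9 FPKM in BDL livers and 11.5, 15.2 and 22.7 FPKM in sham livers. The BDL libraries lay within 1.04-fold of each other, and all BDL+LIG libraries were above them and below all sham libraries. Usp18, whose product also blocks the type I interferon receptor, fell by 1.26 ± 0.21 in BDL against sham (adjusted p = 0.00174) and by 0.97 ± 0.21 in BDL+LIG against sham (adjusted p = 0.00376). Its change was 0.29 ± 0.21 in BDL+LIG against BDL (adjusted p = 0.368).

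Isg15 itself had 7.53, 12.6 and 10.8 FPKM in BDL+LIG livers, 16.7, 18.4 and 21.2 FPKM in BDL livers and 16.7, 43.6 and 104.8 FPKM in sham livers. The sham libraries spanned 6.27-fold, the widest spread of any member in any group, and sham library 1 was level with the BDL libraries. The change in BDL against sham was -1.15 ± 0.49 (adjusted p = 0.106), and without sham library 1 it was -1.81 (adjusted p = 0.00201). Isg15 fell by 1.98 ± 0.49 in BDL+LIG against sham (adjusted p = 0.007), to 0.187 of the sham mean. All 3 BDL+LIG libraries were below all BDL libraries, with a change of -0.82 ± 0.49 (adjusted p = 0.273). When these 2 groups were fitted without the sham libraries, the same change passed (adjusted p = 0.0113). Uba7 averaged 4.26 ± 0.393 FPKM in BDL+LIG livers, 4.88 ± 0.671 FPKM in BDL livers and 5.63 ± 1.42 FPKM in sham livers, with a change of -0.16 ± 0.17 in BDL against sham (adjusted p = 0.528).

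The ADP-ribosyltransferase Parp14 had 6.04, 5.71 and 5.74 FPKM in BDL+LIG livers, 4.46, 4.62 and 5.44 FPKM in BDL livers and 4.73, 3.84 and 3.26 FPKM in sham livers. It rose by 0.48 ± 0.14 in BDL+LIG against sham (adjusted p = 0.0158), although the change was 0.02 with median-of-ratios scaling (adjusted p = 0.904) and 0.04 with quantile normalization (adjusted p = 0.765). In BDL against sham its change was 0.25 ± 0.14 (adjusted p = 0.214; 0.0327 without sham library 1). Its relative Parp9 had 9.94, 10.4 and 10.3 FPKM in BDL+LIG livers, 11.9, 13.3 and 12.8 FPKM in BDL livers and 14.5, 11.2 and 9.03 FPKM in sham livers. Every BDL+LIG library was below every BDL library, with a change of -0.28 ± 0.15 (adjusted p = 0.224). This passed with median-of-ratios scaling (-0.53, adjusted p = 0.0311), with quantile normalization (-0.45, adjusted p = 0.0473) and when the 2 groups were fitted alone (adjusted p = 0.0331).

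Of the 7 interferon-inducible GTPases, which act in cell-autonomous defence against intracellular pathogens, 4 fell (57.1%) and 1 rose (14.3%) in BDL against sham livers. Over all tested genes 6.76% fell and 22.9% rose. Igtp (Irgm3) had 11.4, 11.1 and 17.9 FPKM in BDL+LIG livers, 14.1, 16.9 and 17.6 FPKM in BDL livers and 23.7, 50.7 and 69.3 FPKM in sham livers. The sham libraries did not overlap with those of the ligated groups, which overlapped with each other, and the means were 0.282 and 0.338 of the sham mean in BDL+LIG and BDL livers. Igtp fell by 1.39 ± 0.33 in BDL against sham (adjusted p = 0.00968) and by 1.66 ± 0.33 in BDL+LIG against sham (adjusted p = 0.00194). Iigp1 (Irga6) had 57.6, 65.5 and 68.9 FPKM in BDL+LIG livers, 68.1, 79.8 and 90.0 FPKM in BDL livers and 120.8, 110.1 and 101.5 FPKM in sham livers. The sham libraries spanned 1.19-fold, sham library 1 was the highest of them, and no group overlapped with sham. Iigp1 fell by 0.48 ± 0.13 in BDL against sham (adjusted p = 0.0207) and by 0.78 ± 0.13 in BDL+LIG against sham (adjusted p = 0.000847).

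Irgm1, which regulates the other immunity-related GTPases, had 14.7, 15.8 and 20.3 FPKM in BDL+LIG livers, 19.3, 19.8 and 23.9 FPKM in BDL livers and 25.2, 35.1 and 34.2 FPKM in sham livers. It fell by 0.56 ± 0.17 in BDL against sham (adjusted p = 0.029) and by 0.86 ± 0.17 in BDL+LIG against sham (adjusted p = 0.00175). In BDL against sham the calls of Irgm1 and Iigp1 were each lost under 5 other settings, among them leaving out BDL library 1 (adjusted p = 0.0978 and 0.0905), BDL library 2 (0.105 and 0.0687) or sham library 2 (0.101 and 0.0549), and for Irgm1 also sham library 3 (0.0799). Ifi47 (Irg47) had 12.4, 12.9 and 17.9 FPKM in BDL+LIG livers, 18.5, 18.0 and 20.2 FPKM in BDL livers and 15.8, 23.4 and 28.8 FPKM in sham livers. It was past the threshold in BDL+LIG against sham (-0.60 ± 0.21, adjusted p = 0.0315) although the libraries overlapped, and the call was lost without BDL+LIG library 1 or 2 or sham library 2 or 3 (adjusted p 0.0903 to 0.11). In BDL against sham the change was -0.21 ± 0.21 (adjusted p = 0.474; 0.0492 without sham library 1).

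The guanylate-binding proteins, a second family of GTPases, went in different directions. Gbp2 had 2.82, 4.57 and 9.61 FPKM in BDL+LIG livers, 3.84, 5.33 and 6.44 FPKM in BDL livers and 1.4, 1.43 and 1.51 FPKM in sham livers. Sham libraries were nearly equal, and every ligated library was above them. Gbp2 rose by 1.32 ± 0.31 in BDL against sham (adjusted p = 0.00954), with a mean 3.6 times that in sham, and by 1.32 ± 0.31 in BDL+LIG against sham (adjusted p = 0.00527). Gbp3 averaged 2.04 ± 0.407 FPKM in BDL+LIG livers, 1.87 ± 0.539 FPKM in BDL livers and 3.42 ± 0.871 FPKM in sham livers. It fell by 0.62 ± 0.19 in BDL against sham (adjusted p = 0.0349), with libraries that just overlapped, and the call was lost without BDL library 1 or 2 or sham library 2 or 3 (adjusted p 0.0937 to 0.13). It fell by 0.53 ± 0.19 in BDL+LIG against sham (adjusted p = 0.0404; lost without any 1 library except BDL library 3 and sham library 1, adjusted p 0.0526 to 0.137). Gbp7 had a change of -0.15 ± 0.14 in BDL against sham (adjusted p = 0.46). The Gbp genes are related copies whose reads may be shared.

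In class I antigen processing, Tap1, a subunit of the transporter that carries peptides into the endoplasmic reticulum, had 8.55, 10.0 and 15.2 FPKM in BDL+LIG livers, 6.15, 7.26 and 8.51 FPKM in BDL livers and 9.6, 12.2 and 13.7 FPKM in sham livers. Every BDL library was below every library of both other groups. Tap1 fell by 0.63 ± 0.21 in BDL against sham (adjusted p = 0.0443), and this call was lost under 8 of 20 other settings, among them leaving out any BDL library, BDL+LIG library 2, or sham library 2 or 3 (adjusted p 0.0571 to 0.145 over the 8). Its change was 0.54 ± 0.21 in BDL+LIG against BDL (adjusted p = 0.109), and in BDL+LIG against sham it was -0.09 ± 0.21 (adjusted p = 0.733). The immunoproteasome subunits Psmb8 and Psmb9 had changes of -0.17 ± 0.31 and -0.51 ± 0.36 in BDL against sham (adjusted p = 0.713 and 0.321). Psmb9 had 12.7, 23.1 and 37.6 FPKM in sham livers, and without sham library 1 its change was -0.89 (adjusted p = 0.0398).

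Cxcl10, the chemokine that draws CXCR3-bearing T cells and NK cells, had 10.6, 16.0 and 19.8 FPKM in BDL+LIG livers, 29.7, 22.2 and 16.3 FPKM in BDL livers and 3.27, 7.72 and 7.91 FPKM in sham livers. Every ligated library was above every sham library, and the BDL+LIG and BDL libraries overlapped. Cxcl10 rose by 1.74 ± 0.32 in BDL against sham (adjusted p = 0.00261), with a mean 3.61 times that in sham. The rise was 1.21 ± 0.32 in BDL+LIG against sham (adjusted p = 0.00938), a call lost with median-of-ratios scaling (0.70, adjusted p = 0.154) and quantile normalization (0.90, adjusted p = 0.0681). Between BDL+LIG and BDL the change was -0.53 ± 0.32 (adjusted p = 0.276).

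**Figure D3:**
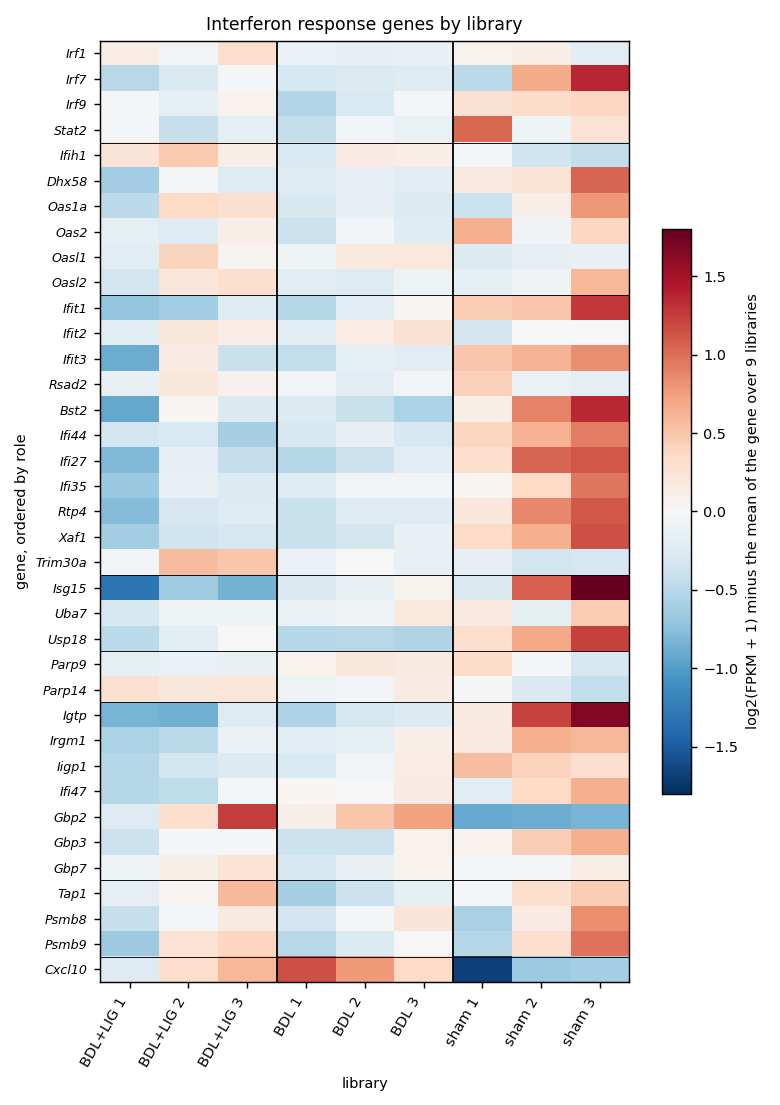
Log2(FPKM + 1) of each member in each library minus the member's mean over the 9 libraries, members by role and libraries by group, BDL+LIG, BDL and sham from left to right. Most rows are highest in sham, most of all in sham library 3, while Gbp2 and Cxcl10 are lowest in sham.

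The upstream part of the pathway was described with lists of other interferon genes, of which the count past the threshold is given in each direction. Of 21 listed interferon genes, 4 had a row in the table and none reached the filter. Ifng (interferon gamma) was listed at 0 in 7 of the 9 libraries, at 0.0208 FPKM in BDL+LIG library 3 and at 0.0237 FPKM in BDL library 3. Ifnb1 and Mx1 were listed but had no row under these symbols. Of 8 tested interferon receptor and Janus kinase genes, 3 rose (37.5%) and none fell in BDL against sham, where 22.9% of all tested genes rose and 6.76% fell. In lists as short as this and the following ones, such counts do not set a list apart from genes at large. Ifngr1, the ligand-binding chain of the interferon gamma receptor, averaged 31.8 ± 7.16 FPKM in BDL+LIG livers, 23.5 ± 0.974 FPKM in BDL livers and 7.37 ± 2.08 FPKM in sham livers (SD, n = 3 each), and rose by 1.58 ± 0.20 in BDL against sham (adjusted p = 0.000301). The other risers were Ifngr2, its signalling chain (0.68 ± 0.12, adjusted p = 0.00252; 0.0585 with median-of-ratios scaling), and Il10rb, a chain of the interferon lambda and interleukin-10 receptors (1.18 ± 0.15, adjusted p = 0.000277). Ifngr2 also rose in BDL+LIG against BDL (0.85 ± 0.12, adjusted p = 0.00987; 0.0562 to 0.0566 without BDL library 1 or 2). Ifnar1, a chain of the type I receptor, averaged 7.62 ± 0.821 FPKM in BDL+LIG livers, 5.89 ± 0.612 FPKM in BDL livers and 4.54 ± 0.464 FPKM in sham livers, with a change of 0.32 ± 0.13 in BDL against sham (adjusted p = 0.101; 0.0437 without sham library 1).

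Of 8 other transcription factors tested, 2 rose in BDL against sham (25.0%, near the 22.9% of all tested genes). Stat3, which carries interleukin-6 signals, rose by 0.56 ± 0.12 in BDL against sham (adjusted p = 0.00511), though not with median-of-ratios scaling (0.28, adjusted p = 0.223). Irf8, a factor of the myeloid lineage, had 4.01, 6.46 and 9.09 FPKM in BDL+LIG livers, 3.89, 4.81 and 4.91 FPKM in BDL livers and 1.71, 2.0 and 2.91 FPKM in sham livers. All ligated libraries were above all sham libraries. It rose by 0.80 ± 0.24 in BDL against sham (adjusted p = 0.0294), a call lost under 8 of 19 other settings, among them leaving out BDL library 2 or 3 or sham library 1 or 2 (adjusted p 0.0513 to 0.119 over the 8).

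Of 10 tested sensor and adaptor genes outside the 37, 4 rose (40.0%, against 22.9% of all tested genes) and none fell in BDL against sham. Sting1, the adaptor of cytosolic DNA sensing, averaged 4.41 ± 1.85 FPKM in BDL+LIG livers, 2.86 ± 0.16 FPKM in BDL livers and 0.512 ± 0.0838 FPKM in sham livers, and rose by 1.35 ± 0.20 (adjusted p = 0.000821). It was below 1 FPKM in every sham library and passed the filter through the ligated ones. Ikbke, a kinase that activates interferon regulatory factors, rose by 1.21 ± 0.18 (adjusted p = 0.000697). Of 9 tested feedback inhibitors, 4 rose (44.4%) and none fell in the same comparison. Socs3, an inhibitor of Janus kinase signalling, averaged 14.4 ± 4.5 FPKM in BDL+LIG livers, 19.8 ± 2.52 FPKM in BDL livers and 7.42 ± 4.12 FPKM in sham livers, and rose by 1.41 ± 0.32 (adjusted p = 0.00775). Ptpn1, a phosphatase of Janus kinases, rose by 1.01 ± 0.15 (adjusted p = 0.000936). Of these 9, 3 rose in BDL+LIG against BDL (33.3%, against 9.98% of all tested genes). Among them were the ubiquitin ligases Rnf125, which marks RIG-I for degradation (1.14 ± 0.18, adjusted p = 0.0102), and Trim25, which instead activates RIG-I (0.71 ± 0.12, adjusted p = 0.013). Both calls were lost without BDL library 2 or BDL library 3, and that of Trim25 also without BDL library 1 and with median-of-ratios scaling (adjusted p 0.0513 to 0.0691).

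Of 48 tested genes known to be induced by type I interferon, 12 rose (25.0%) and 2 fell (4.17%) in BDL against sham, near the shares of all tested genes, with a median change of -0.03. The risers with the smallest p were Ifi27l2b (2.73 ± 0.18, adjusted p = 4.13e-06), the phospholipid scramblase Plscr1 (2.24 ± 0.15, adjusted p = 5.04e-06), the membrane restriction factor Ifitm2 (1.16 ± 0.17, adjusted p = 0.000779) and the necroptosis effector Mlkl (1.08 ± 0.16, adjusted p = 0.000813). Plscr1 averaged 31.2 ± 3.52 FPKM in BDL+LIG livers, 33.3 ± 0.35 FPKM in BDL livers and 6.35 ± 1.38 FPKM in sham livers. The genes that fell were the near-identical apolipoproteins Apol9a and Apol9b (-1.47 ± 0.24 and -1.51 ± 0.24, adjusted p = 0.00142 and 0.00104), which may share reads. Apol9b had 29.9, 37.6 and 42.4 FPKM in BDL+LIG livers, 52.3, 51.0 and 49.9 FPKM in BDL livers and 101.9, 143.5 and 218.8 FPKM in sham livers. Of the 48, 1 rose (2.08%) and 1 fell (2.08%) in BDL+LIG against BDL, where 9.98% of all tested genes rose and 1.79% fell. Parp12 rose (0.74 ± 0.11, adjusted p = 0.0102, and 0.0523 to 0.0588 without any 1 BDL library). Ifitm2 fell (-0.64 ± 0.17, adjusted p = 0.0432), a call lost under 11 of 20 other settings.

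Of 17 tested genes known to be induced by type II interferon, 3 rose (17.6%, against 22.9% of all tested genes) and 2 fell (11.8%, against 6.76%) in BDL against sham. The adhesion molecules Icam1 (1.98 ± 0.12, adjusted p = 2.75e-06) and Vcam1 (2.16 ± 0.21, adjusted p = 4.44e-05) rose, and so did Nos2 (1.13 ± 0.20, adjusted p = 0.00242). The GTPases Gbp10 (-1.70 ± 0.21, adjusted p = 0.000268) and Irgm2 (-0.80 ± 0.17, adjusted p = 0.00615) fell. Gbp10 averaged 0.331 ± 0.255 FPKM in BDL+LIG livers, 0.36 ± 0.248 FPKM in BDL livers and 3.48 ± 1.18 FPKM in sham livers. Its means in both ligated groups were below 1 FPKM, so it passed the filter through the sham libraries, where it was high. That choice favours a fall, so the call of Gbp10 adds no support to those of the members. Of 16 tested genes of class I antigen presentation, 3 rose (18.8%) and none fell in BDL against sham. Calr (calreticulin), a chaperone of class I molecules and of many other proteins, averaged 403.2 ± 45.0 FPKM in BDL+LIG livers, 705.4 ± 9.15 FPKM in BDL livers and 465.5 ± 57.7 FPKM in sham livers. It rose by 0.61 ± 0.14 in BDL against sham (adjusted p = 0.00821; 0.317 with median-of-ratios scaling) and fell by 0.81 ± 0.14 in BDL+LIG against BDL (adjusted p = 0.013; 0.0601 to 0.0691 without any 1 BDL library).

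**Figure D4:**
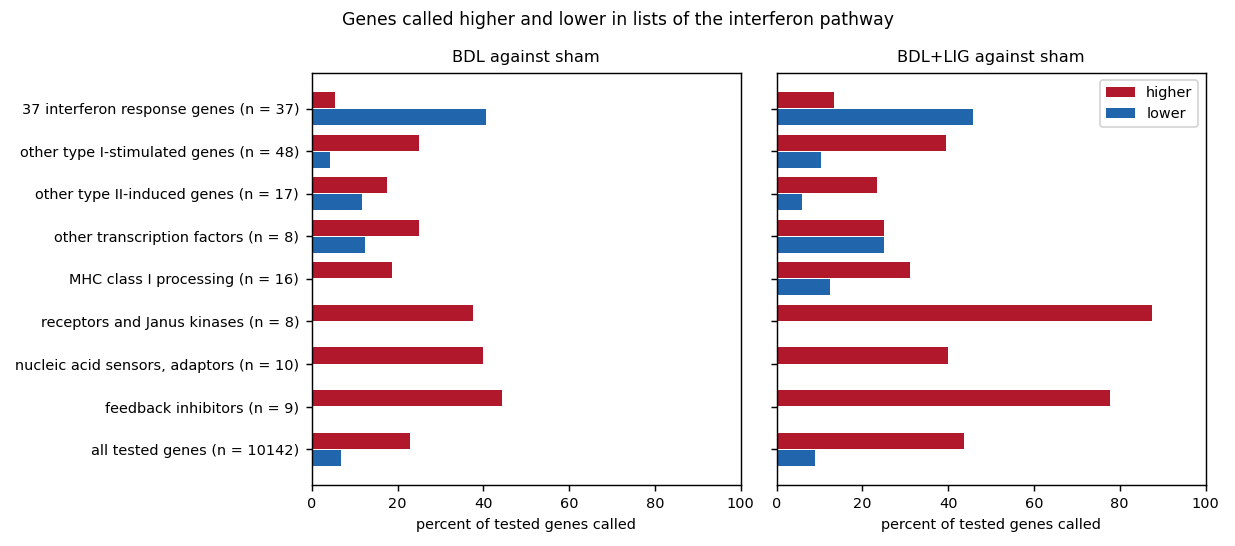
Percent of the tested genes of each interferon list, and of all tested genes, that were higher or lower at an adjusted p under 0.05. The comparisons are BDL against sham and BDL+LIG against sham. The 37 members have 15 lower and 2 higher in BDL against sham, where 6.76% of all tested genes are lower and 22.9% higher. The receptors, sensors and feedback inhibitors, lists of 8 to 10 tested genes, have 3, 4 and 4 higher and none lower.

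Markers of several cell types differed between the groups. Markers of hepatocytes summed to 35282 to 44095 FPKM in BDL+LIG livers, 29006 to 35784 FPKM in BDL livers and 47948 to 56432 FPKM in sham livers. Of the 6 markers 1 rose and 1 fell in BDL against sham. Most of the hepatocyte sums was Alb and Apoa1. Alb, Apoa1, Ttr and Hnf4a had lower means in BDL than in sham, and Cps1 and Tat higher ones. Markers of cholangiocytes summed to 209.9 to 451.3 FPKM in BDL+LIG livers, 403.4 to 597.4 FPKM in BDL livers and 19.3 to 35.4 FPKM in sham livers. All 5 that were tested rose in BDL against sham, where 22.9% of all tested genes rose. All 5 Kupffer cell markers, 8 of 9 monocyte and macrophage markers and all 4 tested neutrophil markers rose as well. Krt7, Ccr2, Itgam, Trem2, Chil3, Ms4a7, Retnlg and Csf3r were below 1 FPKM in every sham library and passed the filter through the ligated ones. That choice favours a rise, so their calls add no support to these counts. Most of the cholangiocyte sums was Spp1, which averaged 313.7, 471.7 and 21.5 FPKM in BDL+LIG, BDL and sham livers. Krt19, Epcam, Sox9 and Cftr had higher means in BDL+LIG than in BDL, and Krt7 and Spp1 lower ones. Kupffer cell markers summed to 330.3 to 744.8 FPKM in BDL+LIG livers, 255.1 to 381.6 FPKM in BDL livers and 65.2 to 126.5 FPKM in sham livers. Neutrophil markers summed to 16.1 to 40.2 FPKM in BDL+LIG livers, 42.8 to 46.9 FPKM in BDL livers and 4.11 to 5.77 FPKM in sham livers. Most of these sums was S100a8 and S100a9. These 2 and Ly6g had lower means in BDL+LIG than in BDL, while Retnlg, Csf3r and Cxcr2 had higher ones. All 5 tested endothelial markers rose in BDL+LIG against BDL, where 9.98% of all tested genes rose. Lyve1 was below 1 FPKM in BDL libraries 1 and 2 and in every sham library. It passed the filter through the BDL+LIG libraries, which favours a rise. Vwf was not tested. The sums of the 6 endothelial markers were 44.6 to 63.6 FPKM in BDL+LIG livers, 26.2 to 28.7 FPKM in BDL livers and 19.3 to 22.3 FPKM in sham livers. The 5 calls were lost without BDL library 2, where none of the 10142 tested genes passed. Without BDL libraries 1 and 3, 40 and 54 genes passed. Markers of plasmacytoid dendritic cells, the specialised producers of type I interferon, summed to 0.499 to 1.12 FPKM in BDL+LIG livers, 0.552 to 1.11 FPKM in BDL livers and 0.674 to 0.957 FPKM in sham livers, and none of the 6 reached the filter. No marker of these lists was at 0 in every library. In whole liver, fewer cells of a type and less RNA per cell cannot be told apart, and the part of these marker changes in the changes of the 37 genes was not tested.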

How the data were processed

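RNA-seq of 9 mouse liver libraries was analysed from 1 table of 21470 genes. Per the labels' protocols, TRIzol was used to extract RNA and VAHTS Universal V6 reagents to build libraries. HISAT2 2.1.0, fastp, DESeq2 and GRCm39 appear in the submitters' processing notes; counting program, annotation and strand setting are not stated there, so reads of overlapping antisense genes cannot be told apart. The values are FPKM, as the authors deposited them. Groups and replicate numbers were taken from the titles.

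Differences were tested with limma 3.58.1 (R 4.3.3; lmFit and eBayes with trend, all 9 libraries in 1 fit) on log2(FPKM + 1), for 10142 genes that reached 1 FPKM in 3 or more libraries, with Benjamini-Hochberg adjustment within each comparison and a threshold of 0.05. The procedure was checked on simulated data. Low FPKM values are whole multiples of the worth of 1 fragment in a library, which gave whole fragments (within 0.02) for 19446 of 19449 genes, all 37 members included. These fragments served for depth and for a limma-voom alternative. No library was a copy of another of its group.

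All 37 members may be named. By role, up to 4 members with the smallest p, and 8 fixed members, are given with every library's value. From each other list, up to 4 genes past the threshold per direction and comparison were named, with Ifnar1, Ifngr1 and Ifng; 1 gene of these lists is not reported here. The members and lists were chosen with earlier results of these data known.

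Promoters came from RefSeq (GRCm38.p6), an earlier build than that of the table. Other pseudocounts, filters, scalings, fits and leaving out each library were tried as alternatives.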

Additional observations from a re-analysis of the deposited data

How the results depend on the processing

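All alternatives listed at the start were run. In BDL against sham, 1838 genes passed with a mean of at least 5 FPKM, where 22 members were left and 1 was higher and 9 lower; the members' median was -0.63 with voom, -0.64 with quantile normalization and -0.79 with median-of-ratios scaling. In BDL+LIG against BDL, genes past the threshold numbered 623 with no filter, 575 with a mean of at least 5 FPKM, 630 with median-of-ratios scaling, 1926 with TPM, 3433 with the 2 groups alone and 742 with the replicate block, against 1194. Members there were 1 higher with TPM and 1 with the replicate block (Tap1), and 2 lower with median-of-ratios scaling (Parp9 and Iigp1), 1 with quantile normalization (Parp9) and 2 with the 2 groups alone (Isg15 and Parp9); the median was -0.25, 0.12 and -0.18 with median-of-ratios scaling, TPM and quantile normalization. In BDL+LIG against sham, 2765 genes passed with a mean of at least 5 FPKM; members higher were 2 there, 1 each with quantile normalization and median-of-ratios scaling, and the median was -0.62 with a pseudocount of 0.1, -0.69 with a mean of at least 5 FPKM, -0.67 with voom, -0.74 with quantile normalization and -0.89 with median-of-ratios scaling. Some members and named genes turned in direction in BDL+LIG against sham and were past the threshold in the main fit or the alternative. These were Rsad2 (-0.43) and Gbp7 (-0.40) with quantile normalization. With median-of-ratios scaling they were Myd88 (-0.06), Mavs (-0.37), Ifitm2 (-0.03), Tapbpl (-0.08) and Erap1 (-0.06). Past the threshold or not, 10 of the 37 members had a positive change in the main fit. There were 5 with quantile normalization, 5 with median-of-ratios scaling and 15 with TPM. The cause was not tested. Scaling moved the median of all genes in BDL against sham to -0.06 with median-of-ratios, -0.01 with quantile normalization and 0.26 with TPM, from 0.16. Then 18, 18 and 12 members were lower and 2 higher each time. Of the 10142 tested genes, 1466, 1309 and 529 were then lower and 1462, 1641 and 2530 higher, against 686 and 2322 in the main fit. In BDL+LIG against sham, scaling moved the median of all genes to -0.09, -0.01 and 0.59, from 0.34.

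Leaving out each library in turn gave, in BDL against sham, 1894 to 4668 genes, 2 to 3 members higher, 8 to 20 lower and a median of -0.62 to -0.35. In BDL+LIG against BDL it gave 0 to 3144 genes, 0 to 1 members higher, 0 to 0 lower and a median of -0.12 to 0.12, and in BDL+LIG against sham 4505 to 6922 genes, 3 to 5 members higher, 13 to 18 lower and a median of -0.58 to -0.35. The count of genes in BDL against sham was 1902 without BDL library 2, 1894 without BDL library 3 and 4668 without sham library 1. In BDL+LIG against BDL it was 40, 0 and 54 without BDL libraries 1, 2 and 3, 716, 289 and 322 without BDL+LIG libraries 1, 2 and 3, and 3144 without sham library 1. The count of 0 came with 2317 genes at an unadjusted p under 0.05 in limma. Same-numbered libraries of different groups had correlations of -0.126 to 0.285 in their deviations from the group means, over 0.1 in 3 of 9 pairs. The highest between libraries of different numbers was 0.14. With 3 libraries a group, these values cannot settle whether the numbers pair the libraries, and the labels state no pairing. With the replicate block 2782 genes passed in BDL against sham (16 members lower and 2 higher) and 5125 in BDL+LIG against sham (18 lower and 5 higher). Arms with 2 libraries and low FPKM limit what can be called.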
